A study of Epimedium pubescens with 27 samples.

Results

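The anthocyanidin branch of flavonoid synthesis was followed through 7 genes expressed in leaves of Epimedium pubescens, a medicinal herb of the barberry family. The genes were those whose deposited description holds the name of dihydroflavonol 4-reductase (DFR), leucoanthocyanidin dioxygenase or anthocyanidin synthase (LDOX), anthocyanidin reductase (ANR) or leucoanthocyanidin reductase (LAR), and whose counts summed to 270 or more over all 27 libraries. Of the 58645 genes in the tables, 18 carried such a name and 7 passed the count minimum, with 2 for DFR, 2 for LDOX, 2 for ANR and 1 for LAR. The members were chosen by their summed counts as the only measured value, under a rule set with earlier results of these data known. The member nearest to the minimum was Ebr05G030660 with 3650 counts, and the gene just outside it was Ebr04G024980, an ANR match with 267 counts. The other 10 genes left out held 0 to 133 counts each, 9 of them DFR matches.

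The plants were 1-year-old seedlings grown in sand and perlite, given a recovery period, and then supplied with 0 (LN), 7.5 (MN) or 22.5 mM NO3- (HN). Leaves were harvested 24 (S1), 36 (S2) and 48 (S3) days after treatment began (DAT), and 3 RNA-seq libraries, replicates A, B and C, were made for each of the 9 combinations, which gave 27 libraries. The study asked how nitrate supply changes carbon and flavonoid metabolism, with MN as its moderate level, and it described damage to LN and HN plants at 48 DAT. No harvest preceded the treatments, so leaf age and time under a treatment cannot be told apart, and the sources used here do not say how many plants went into a library.

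DFR reduces dihydroflavonols to leucoanthocyanidins and so draws on the same substrates as flavonol synthase, which leads to the flavonols from which the icariin-type compounds of Epimedium derive. LDOX oxidises leucoanthocyanidins to anthocyanidins, the cores of the red and purple anthocyanins that colour young leaves of many plants. ANR and LAR lead away from pigment, to epicatechin and catechin, the flavan-3-ols that build condensed tannins.

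Total counts per library ranged from 13609959 to 18482851. Between groups, the 324 pairs of libraries differed with a coefficient of variation of 0.481 or more, but 7 of the 9 groups held 1 pair of replicates at 0.152 to 0.401. HN S1, HN S2, MN S1 and MN S2 held such a close pair in B and C, and HN S3, LN S2 and LN S1 in A and B. They differed by more than sampling noise and were kept as separate libraries, but counts of called genes are also given with every close pair summed into 1 library. Leaf mesophyll markers (chlorophyll a-b binding proteins and Rubisco small subunits, 63 genes) summed to 25089.6 to 74434 FPKM per library, whereas the 3 Casparian strip genes of root endodermis were at or near 0, with 2 of them without a count and a summed level of at most 0.692 FPKM. FPKM, fragments per kilobase of gene scaled to library size, is the scale of every level below.

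The 2 DFR genes were Ebr02G029770, at chromosome 2:262861214-262863457 (+ strand), and Ebr05G024170, at chromosome 5:186413951-186416165 (+ strand), whose best protein matches were the apple and pear enzymes described as bifunctional dihydroflavonol and flavanone reductases. Both LDOX genes matched the apple enzyme and lay on chromosome 5, Ebr05G052880 at 388861256-388862407 (+ strand) and Ebr05G052940 at 390038943-390040495 (minus strand), 1176536 bp apart. Of the ANR genes, Ebr03G023120 at chromosome 3:180009924-180012329 (+ strand) matched grapevine ANR and Ebr05G030660 at chromosome 5:230826741-230839313 (+ strand) matched the Arabidopsis protein. The LAR gene, Ebr02G039640, lay at chromosome 2:341581431-341584124 (+ strand) and matched the enzyme of the legume Desmodium uncinatum. Coordinates are those of the deposited tables. The paper cites a published genome of Epimedium pubescens as its reference, and the version of the assembly is not named in the sources used here. How reads shared by similar copies were counted is not stated either, so the split between copies of an enzyme is uncertain to that extent.

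Averaged over all 27 libraries, ANR Ebr03G023120 had the highest level of the branch (428 FPKM), followed by LDOX Ebr05G052880 (306), DFR Ebr02G029770 (262), DFR Ebr05G024170 (119), LAR Ebr02G039640 (61.3), LDOX Ebr05G052940 (60.1) and ANR Ebr05G030660 (8.33). Summed over the 7 genes, the level at S1 was 1611 ± 1046 FPKM in LN, 2744 ± 858 in MN and 3540.3 ± 1248 in HN (mean ± SD, n = 3). The sums at S2 were 883 ± 572, 491 ± 393 and 648 ± 144 FPKM, and those at S3 were 335 ± 160.0, 633 ± 431 and 312 ± 80.7 FPKM. The mean of the branch was highest at 24 DAT in each treatment, and its lowest S1 library (909 FPKM, in LN) lay above the highest LN and HN libraries of S3 (511 and 404) but not above the highest of MN S3 (1083). Among S2 libraries, the highest of MN and HN (894 and 814) lay below that S1 library. The median and the highest of LN S2 (1079 and 1332) lay above it. Fewer cells of a type and less RNA per cell cannot be told apart in whole leaves.

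**Figure D1:**
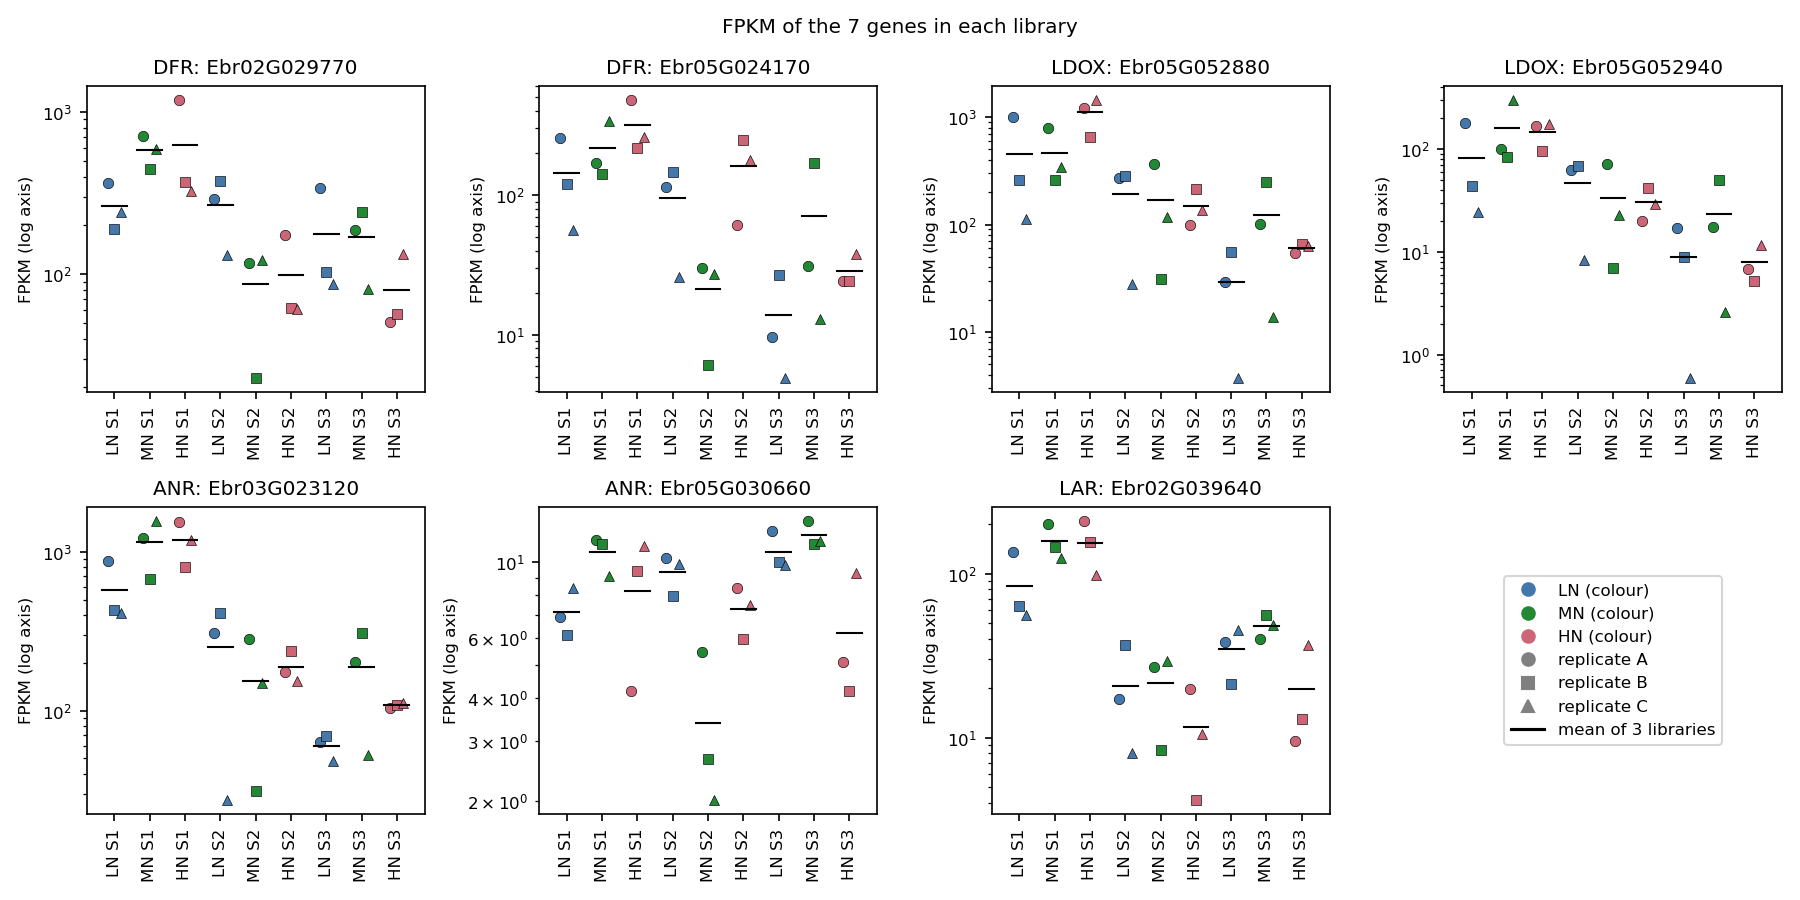
FPKM (log axes) of each of the 7 genes in the 27 libraries, by treatment (colour) and stage, with the replicate given by the symbol and the mean of 3 libraries by a bar. Apart from Ebr05G030660, each panel has its highest group mean at S1, while Ebr05G030660 stays between 2.02 and 13.1 FPKM throughout.

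Stage, tested jointly over the 3 treatments with edgeR's quasi-likelihood test on all 27 libraries, was called for 7 of 7 genes (adjusted p from 0.00242 for LAR Ebr02G039640 to 0.0388 for ANR Ebr05G030660), against 10.3% of the 28593 genes tested. Any difference among the 9 groups was also called for 7 of 7, against 15.9%. Treatment, tested jointly over the stages, was called for 0 of 7 genes by edgeR (2 at an unadjusted p below 0.05, background 1.42% called), and by DESeq2 for 2, DFR Ebr05G024170 and ANR Ebr05G030660 (background 10.2%). Limma on log2(FPKM + 1) called 1, Ebr05G030660, and edgeR without MN S2 A called the same gene. The treatment by stage interaction was called for 0 of 7 by edgeR (3 at an unadjusted p below 0.05, background 0.175%) and for the same 2 genes by DESeq2 (background 3.85%), with none by limma. With close pairs summed, edgeR called 0 of 7 for stage and for any difference, where 6 and 5 of the 7 kept an unadjusted p below 0.05 (9.56% and 11.5% of all genes did) and 0 and 4 genes of the whole table were called. Leaving out HN S3 A, HN S3 B or HN S1 C lowered the stage count to 4 of 7 in each case. Without HN S3 A or without HN S3 B, any difference among groups was called for 4.

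With the 3 treatments averaged in that fit, a contrast added after the data had been seen, 6 of the 7 genes fell from S1 to S2 and the same 6 were below S1 at S3, all but ANR Ebr05G030660. For contrasts of this kind, a gene was called when its adjusted p was below 0.05 and it was at least 2-fold apart (1 on the log2 scale). The background of lower calls was 3.99% of 28593 genes for S2 vs S1 (10.2% in both directions) and 0.832% for S3 vs S1 (2.18%). The median log2 fold change of the 7 genes was -1.78 at S2 and -2.80 at S3, beside 0.02 and 0.03 over all genes tested. From S2 to S3, 0 of 7 were called by edgeR (5 at an unadjusted p below 0.05, background 5.49% called) with 2 called by DESeq2, both LDOX genes, and 0 by limma. The 5.49% is that of edgeR, and the DESeq2 and limma counts have no share over all genes beside them here. With close pairs summed, LAR Ebr02G039640 was the 1 gene called for S2 vs S1 and 0 were called for S3 vs S1, where 5 and 6 of 7 had an unadjusted p below 0.05 (18.5% and 11.6% of all genes). Of all genes, 0.321% were called for S2 vs S1 in that setting. Without LN S1 A, MN S2 B or HN S2 A the S2 vs S1 count fell to 3 in each case, and without MN S3 B the S3 vs S2 count rose to 2.

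Among marker lists, the trichome list, of which 1 gene was found (a match to GLABRA 2, a homeobox factor of leaf hairs and other epidermal cells in Arabidopsis), moved with stage as the branch did. Its level was 20.1 to 40.5 FPKM at S1, 11.1 to 20.8 at S2 and 11.5 to 19.9 at S3. Over the 27 libraries its log2(FPKM + 1) had a Pearson correlation of 0.61 to 0.77 with the 6 genes other than Ebr05G030660, and of -0.20 to 0.23 once group means were removed, with libraries and depth shared. A match to GLABRA 3, Ebr05G063290, was counted among the regulators below and not in this list, and it went the other way. Its medians were 25.5, 67.5 and 26.7 FPKM at S1, S2 and S3, so the trichome pattern rests on 1 gene. The part of trichome cells in the fall of the branch was not tested. Leaf mesophyll markers spanned 29919 to 66039.6 FPKM at S1 and 25089.6 to 71132 at S3, mitotic cyclins (26 genes, 7 at 0 in all libraries) 164 to 219 and 165 to 266, and senescence markers (14 genes, 4 at 0) 158 to 276 and 165 to 244, so these ranges, pooled over treatments, overlapped between S1 and S3. Within treatments they did not always overlap. Leaf mesophyll markers summed to 69860 to 74434 FPKM in MN S2, above all libraries of MN S1 (38889 to 52730), MN S3 (39043 to 42507), LN S2 (33496 to 50462) and HN S2 (27187 to 42377). Mitotic cyclins were at 179.6 to 181.6 FPKM in HN S2, below all libraries of HN S1 (196 to 219) and HN S3 (210.2 to 266). Those of HN S2 lay above LN S2 (153 to 175), and those of HN S1 above MN S1 (178 to 192). In HN S3 cyclins lay above MN S3 (173 to 204) and LN S3 (165 to 198). Senescence markers were at 165 to 185 FPKM in HN S3, below LN S3 (195 to 244). In HN S1 they were at 183 to 276 FPKM, above MN S1 (168 to 182). The part of these cell types in the differences between stages or treatments was not tested.

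DFR, the entry to the branch, was represented by Ebr02G029770 as the more abundant copy in 25 of 27 libraries. At S1, Ebr02G029770 stood at 364, 189 and 240.4 FPKM in LN (replicates A, B and C), 716, 443 and 591 in MN and 1187, 369.7 and 325 in HN. At S2 it stood at 292, 377 and 132 FPKM in LN, 117, 22.7 and 122 in MN and 174, 61.6 and 60.5 in HN. At S3 the levels were 342, 103 and 87.2 FPKM in LN, 188, 241 and 81.1 in MN and 50.5, 56.5 and 134 in HN. All S1 libraries of MN and HN lay above all S2 and S3 libraries of their own treatment, whereas the LN libraries of the 3 stages overlapped. The log2 fold change with treatments averaged was -1.78 ± 0.40 (SE, adjusted p = 0.00539) for S2 vs S1 and -1.75 ± 0.40 (SE, adjusted p = 0.0241) for S3 vs S1. In LN alone the edgeR values were 0.01 ± 0.43 and -0.57 ± 0.58 (SE), beside -2.75 ± 0.64 and -1.77 ± 0.44 in MN and -2.65 ± 0.68 and -2.93 ± 0.66 in HN, none of which was called. Ranked by mean FPKM, the groups ran HN S1 (627), MN S1 (583), LN S2 (267), LN S1 (264), LN S3 (177), MN S3 (170.0), HN S2 (98.7), MN S2 (87.1), HN S3 (80.2). In that order only MN S1 and LN S2 were neighbours without overlapping libraries, and within HN S1 replicate A, at 1187 FPKM, stood apart from B and C. The S3 vs S1 call was lost without LN S1 A, HN S3 A or HN S3 B, and the fold change ran from -2.05 to -1.47 as each of the 27 libraries was left out.

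In LN, MN and HN at S1, Ebr05G024170 was at 258, 121 and 56.3 FPKM, at 169, 142 and 339 and at 480.1, 219 and 261. The S2 levels were 115, 146 and 25.9 FPKM in LN, 30.3, 6.07 and 27.4 in MN and 60.7, 246 and 178 in HN. By S3 they were 9.63, 26.8 and 4.89 FPKM in LN, 31.3, 169 and 13.1 in MN and 24.4, 24.4 and 37.7 in HN. Of the HN S2 libraries, B lay within the range of HN S1 and C (178 FPKM) below it, while all S2 libraries of MN and all S3 libraries of LN and HN lay below those of S1 in the same treatment. The change with treatments averaged was -1.63 ± 0.49 (SE, adjusted p = 0.0275) for S2 vs S1 and -2.80 ± 0.52 (SE, adjusted p = 0.00843) for S3 vs S1. Within HN the gene fell between S2 and S3 (-2.46 ± 0.50 SE, adjusted p = 0.0495) and between S1 and S3 (-3.44 ± 0.39 SE, adjusted p = 0.0155), but was not called for S2 vs S1 (-0.99 ± 0.53 SE, adjusted p = 0.311). Ranked by mean FPKM, the groups ran HN S1 (320.0), MN S1 (217), HN S2 (162), LN S1 (145), LN S2 (95.6), MN S3 (71.0), HN S3 (28.8), MN S2 (21.3), LN S3 (13.8), and each pair of neighbours overlapped. The S2 vs S1 call with treatments averaged was lost in 4 of the 27 fits that left out 1 library, those without LN S1 A, MN S1 C, MN S2 B or HN S2 A (-1.79 to -1.39 over all 27).

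The balance of the 2 DFR copies varied between libraries. The level of Ebr02G029770 over that of Ebr05G024170 was 1.41, 1.57 and 4.27 in LN S1, 4.23, 3.12 and 1.74 in MN S1 and 2.47, 1.69 and 1.25 in HN S1 (A, B and C). At S2 the ratio was 2.55, 2.58 and 5.08 in LN, 3.86, 3.75 and 4.43 in MN and 2.87, 0.25 and 0.341 in HN. At S3 it was 35.5, 3.83 and 17.8 in LN, 6.01, 1.43 and 6.19 in MN and 2.07, 2.32 and 3.55 in HN. Ebr05G024170 exceeded its partner in HN S2 B and C, a close pair, and nowhere else, and the widest excess of Ebr02G029770 was in LN S3 A and C. The 2 LDOX copies kept a narrower ratio, 1.14 to 12.5 against 0.25 to 35.5 for DFR over the 27 libraries, a difference that was not tested.

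**Figure D2:**
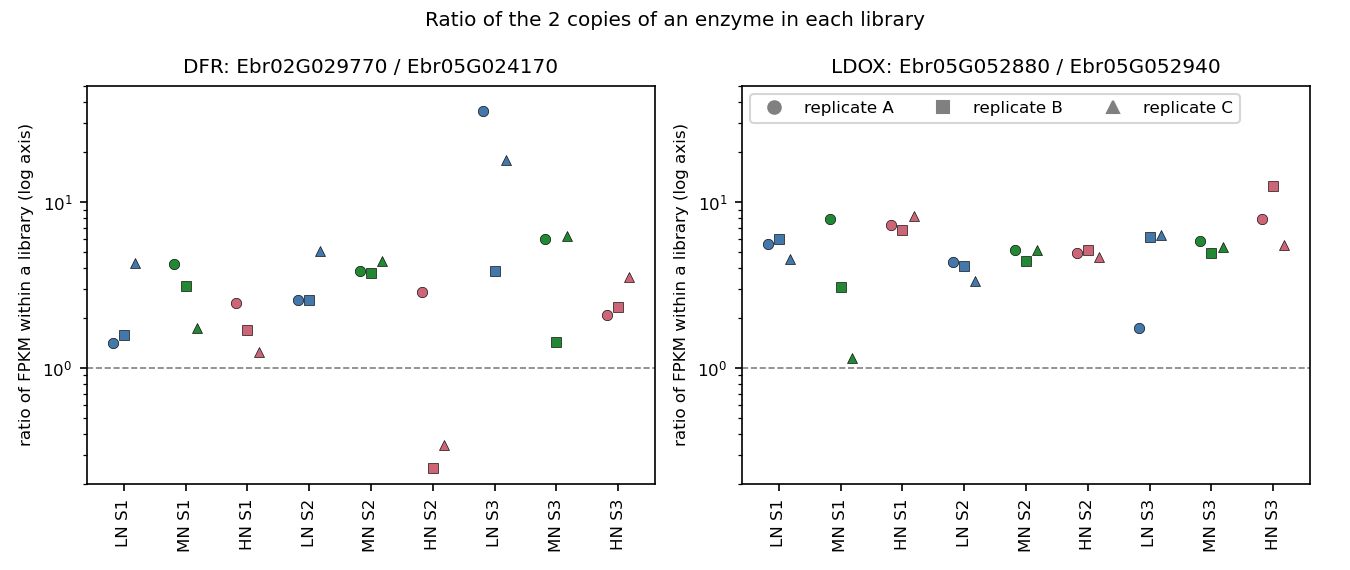
Ratio of FPKM between the 2 copies of DFR (left) and of LDOX (right) within each library (log axes), by treatment (colours as for the levels, LN blue, MN green, HN red), stage and replicate. The dashed line marks equal levels, below which lie only the DFR ratios of HN S2 B and C, 0.25 and 0.341.

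LDOX makes the anthocyanidins themselves. Ebr05G052880 had 999, 259 and 112 FPKM in LN S1, 797, 259 and 344 in MN S1 and 1215, 651 and 1445 in HN S1. Its S2 levels were 272, 283 and 28.0 FPKM in LN, 363, 31.2 and 118 in MN and 98.1, 215 and 135 in HN. Its S3 levels were 29.3, 55.4 and 3.70 FPKM in LN, 101, 249.8 and 13.9 in MN and 54.1, 65.3 and 63.8 in HN. HN at S1 held the highest level, and its 3 libraries lay above all HN libraries of S2 and S3, which did not overlap with each other either. The change with treatments averaged was -1.84 ± 0.59 (SE, adjusted p = 0.038) for S2 vs S1 and -3.33 ± 0.63 (SE, adjusted p = 0.0101) for S3 vs S1. Within HN the gene fell by S2 (-2.88 ± 0.43 SE, adjusted p = 0.0209) and was lower than S1 at S3 too (-4.15 ± 0.37 SE, adjusted p = 0.014). Ranked by mean FPKM, the groups ran HN S1 (1104), MN S1 (466), LN S1 (456), LN S2 (194), MN S2 (171), HN S2 (149.6), MN S3 (122), HN S3 (61.1), LN S3 (29.5), with overlap between all neighbours, and replicates spread widely at S3, from 3.70 to 55.4 FPKM in LN and from 13.9 to 249.8 in MN. The averaged S2 vs S1 call was lost in 10 of the 27 fits that left out 1 library (-2.23 to -1.40), and the S3 vs S1 call in none (-3.71 to -2.90).

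Its less abundant partner Ebr05G052940 was at 178, 43.3 and 24.6 FPKM in LN S1, 101, 84.4 and 301 in MN S1 and 166, 96.7 and 174 in HN S1. At S2 Ebr05G052940 reached 62.6, 68.7 and 8.41 FPKM in LN, 70.9, 7.03 and 23.0 in MN and 20.0, 42.1 and 28.9 in HN. At S3 it reached 16.9, 8.98 and 0.586 FPKM in LN, 17.5, 50.5 and 2.60 in MN and 6.84, 5.23 and 11.6 in HN. In each treatment the S3 libraries lay below all S1 libraries, and the lowest value, 0.586 FPKM in LN S3 C, rested on 15 counts. Averaged over treatments the change was -1.77 ± 0.61 (SE, adjusted p = 0.0487) for S2 vs S1 and -3.38 ± 0.65 (SE, adjusted p = 0.0105) for S3 vs S1. HN gave a call in each of its 3 stage comparisons, -2.27 ± 0.36 (SE, adjusted p = 0.0246) for S2 vs S1, -1.92 ± 0.39 (SE, adjusted p = 0.0486) for S3 vs S2 and -4.18 ± 0.42 (SE, adjusted p = 0.0153) for S3 vs S1. Groups ranked MN S1 (162), HN S1 (146), LN S1 (82.0), LN S2 (46.6), MN S2 (33.7), HN S2 (30.3), MN S3 (23.5), LN S3 (8.82), HN S3 (7.90) by mean FPKM, and all neighbours overlapped. Leaving out 1 library lost the averaged S2 vs S1 call in 21 of 27 fits (-2.16 to -1.34) and the S3 vs S1 call in none (-3.81 to -2.96).

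ANR converts anthocyanidins to epicatechin. Ebr03G023120 was at 873, 430.4 and 411 FPKM in LN S1, 1221, 669 and 1554 in MN S1 and 1544, 808 and 1191 in HN S1. By S2 the levels had moved to 309.7, 413 and 27.4 FPKM in LN, 281, 30.9 and 149 in MN and 176, 238 and 154 in HN. By S3 they stood at 63.4, 68.9 and 48.0 FPKM in LN, 202, 307 and 52.9 in MN and 104, 109 and 112 in HN. Of the 18 libraries of S2 and S3, 17 lay below the lowest S1 library, the exception being LN S2 B at 413 FPKM against 411 in LN S1 C. The change with treatments averaged was -2.23 ± 0.43 (SE, adjusted p = 0.00246) for S2 vs S1 and -3.08 ± 0.45 (SE, adjusted p = 0.00184) for S3 vs S1. Within HN it fell by S2 (-2.64 ± 0.33 SE, adjusted p = 0.0154) and was -3.42 ± 0.31 (SE, adjusted p = 0.014) at S3 against S1. The LN value for S3 vs S1 was -3.24 ± 0.40 (SE, adjusted p = 0.154) and was not called, and it was called by DESeq2 and by limma. Groups ran HN S1 (1181), MN S1 (1148), LN S1 (572), LN S2 (250.0), HN S2 (189), MN S3 (187), MN S2 (153), HN S3 (108), LN S3 (60.1) by mean FPKM, and only HN S3 and LN S3 were neighbours without overlap.

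The other gene described as ANR, Ebr05G030660, was at 6.92, 6.12 and 8.42 FPKM in LN S1, 11.6, 11.3 and 9.10 in MN S1 and 4.21, 9.41 and 11.1 in HN S1. Its levels at S2 were 10.3, 7.93 and 9.86 FPKM in LN, 5.45, 2.67 and 2.02 in MN and 8.39, 5.97 and 7.47 in HN. Those at S3 were 12.3, 10.001 and 9.82 FPKM in LN, 13.1, 11.3 and 11.5 in MN and 5.11, 4.19 and 9.26 in HN. This gene had no S1 peak, and its lowest libraries were MN S2 B and C, with 36 and 30 counts, followed by HN S3 B and HN S1 A. With treatments averaged, its change was -0.47 ± 0.21 (SE, adjusted p = 0.135) for S2 vs S1 and 0.13 ± 0.21 (SE, adjusted p = 0.814) for S3 vs S1, neither of which was called. In MN it was -1.67 ± 0.45 (SE, adjusted p = 0.112) for S2 vs S1 and 1.85 ± 0.44 (SE, adjusted p = 0.164) for S3 vs S2, called in neither by edgeR on the 6 libraries but in both by DESeq2 and by edgeR with all 27 libraries in 1 fit. Mean FPKM ranked the groups MN S3 (11.97), LN S3 (10.7), MN S1 (10.7), LN S2 (9.36), HN S1 (8.25), HN S2 (7.28), LN S1 (7.15), HN S3 (6.18), MN S2 (3.38), and all neighbours overlapped. The ratio of Ebr03G023120 to this gene ran from 2.78 to 367 over the 27 libraries.

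LAR takes leucoanthocyanidins to catechin and so competes with LDOX. Ebr02G039640 was at 134, 63.4 and 55.7 FPKM in LN S1, 201, 145 and 124 in MN S1 and 208, 156 and 98.5 in HN S1. At S2 the LAR gene was at 17.1, 36.5 and 8.09 FPKM in LN, 26.98, 8.35 and 29.5 in MN and 19.8, 4.17 and 10.6 in HN. At S3 it was at 38.0, 21.2 and 45.0 FPKM in LN, 39.9, 55.6 and 48.3 in MN and 9.55, 12.9 and 36.4 in HN. Each of the 18 later libraries lay below the lowest S1 library, which was so for this gene alone among the 7. The margin was narrow, with MN S3 B at 55.59 FPKM against 55.66 in LN S1 C. The share of all genes with such a separation was not computed. The change with treatments averaged was -2.86 ± 0.37 (SE, adjusted p = 0.000188) for S2 vs S1, the one that edgeR still called with close pairs summed (-2.84, adjusted p = 0.0182), and -1.96 ± 0.36 (SE, adjusted p = 0.00805) for S3 vs S1. Within HN it fell by S2 (-3.73 ± 0.62 SE, adjusted p = 0.0266), whereas S3 vs S1 was -2.93 ± 0.58 (SE, adjusted p = 0.0552) and was not called. From S2 to S3 its value with treatments averaged was 0.90 ± 0.35 (SE, adjusted p = 0.0962), positive where those of LDOX and ANR Ebr03G023120 were negative (-1.495, -1.61 and -0.85), with none of the 4 called. Groups ran MN S1 (157), HN S1 (154), LN S1 (84.5), MN S3 (47.9), LN S3 (34.7), MN S2 (21.6), LN S2 (20.6), HN S3 (19.6), HN S2 (11.5) by mean FPKM, and LN S1 and MN S3 were the only neighbours that did not overlap.

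Within single treatments, edgeR fits of 3 libraries against 3 gave calls in HN and none in LN or MN. In HN they called 4 of 7 genes lower for S2 vs S1 (both LDOX genes, ANR Ebr03G023120 and LAR), against 2.52% of 22426 genes lower and 6.46% called in all. They called 4 lower for S3 vs S1 (DFR Ebr05G024170, both LDOX genes and ANR Ebr03G023120), against 0.578% lower and 2.2% in all, and 2 lower for S3 vs S2 (DFR Ebr05G024170 and LDOX Ebr05G052940), against 1.62% and 3.46%. Libraries of the 2 stages did not overlap for 5, 6 and 4 of the 7 genes, all lower at the later stage, where 14.4%, 11.5% and 16.9% of all genes were apart in that direction. Leaving out members of the close pairs lowered these counts. For S2 vs S1 the count was 0 without HN S2 B or C, 1 without HN S1 C and 2 without HN S1 B. For S3 vs S1 it was 0 without HN S3 A or B and 2 without HN S1 B, and for S3 vs S2 it was 0 without HN S2 B, HN S2 C, HN S3 A or HN S3 B. With close pairs summed all 3 counts were 0, as they were for all genes tested, and 1 fit of all 27 libraries called DFR Ebr02G029770, ANR Ebr03G023120 and LAR in S2 vs S1 and S3 vs S1 and none in S3 vs S2. No share over all genes is given for the fit of 27 libraries.

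In MN, 0 of 7 genes were called by edgeR for S2 vs S1, S3 vs S1 and S3 vs S2 (6, 4 and 2 at an unadjusted p below 0.05, background 1.27, 0 and 0.00914% called), while DESeq2 called 5, 4 and 1 (background 7.66%, 2% and 4.51%) and limma 2, 0 and 0. Over all genes, the unadjusted p was below 0.05 for 20.8%, 8.24% and 18.9%. Without MN S2 A, edgeR called 2 for S2 vs S1, LAR and ANR Ebr05G030660, both lower. The 7 fold changes of MN S2 vs S1 were all negative, -3.36 to -1.46, with adjusted p from 0.0568 for LAR. Libraries of the 2 MN stages did not overlap for 6 genes, all lower, in S2 vs S1 (background 14.9%). The same held for 5 genes, all lower, in S3 vs S1 (6.84%) and for 2, both higher, in S3 vs S2 (15.7%). With all 27 libraries in 1 fit, edgeR called 5 genes for MN S2 vs S1 and 1 for MN S3 vs S2. The share of all genes called in that fit or by limma is not given here, so those counts have no matching background. In LN the counts were 0, 0 and 0 by edgeR (1, 5 and 1 at an unadjusted p below 0.05, against 9.7%, 7.31% and 8.19% of all genes, background 0, 0 and 0% called) and 1, 3 and 1 by DESeq2 (background 1.32%, 1.64% and 1.53%), with 1 by limma for S3 vs S1, ANR Ebr03G023120. For LN S3 vs S1, 5 of the 7 genes had lower libraries without overlap (background 7.85%), DFR Ebr02G029770 overlapped, and ANR Ebr05G030660 was higher without overlap (background 6.8%). The treatment by stage test, which asks whether stage changes differed between treatments, called 0 of the 7 genes by edgeR and limma and 2 by DESeq2, DFR Ebr05G024170 and ANR Ebr05G030660.

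**Figure D3:**
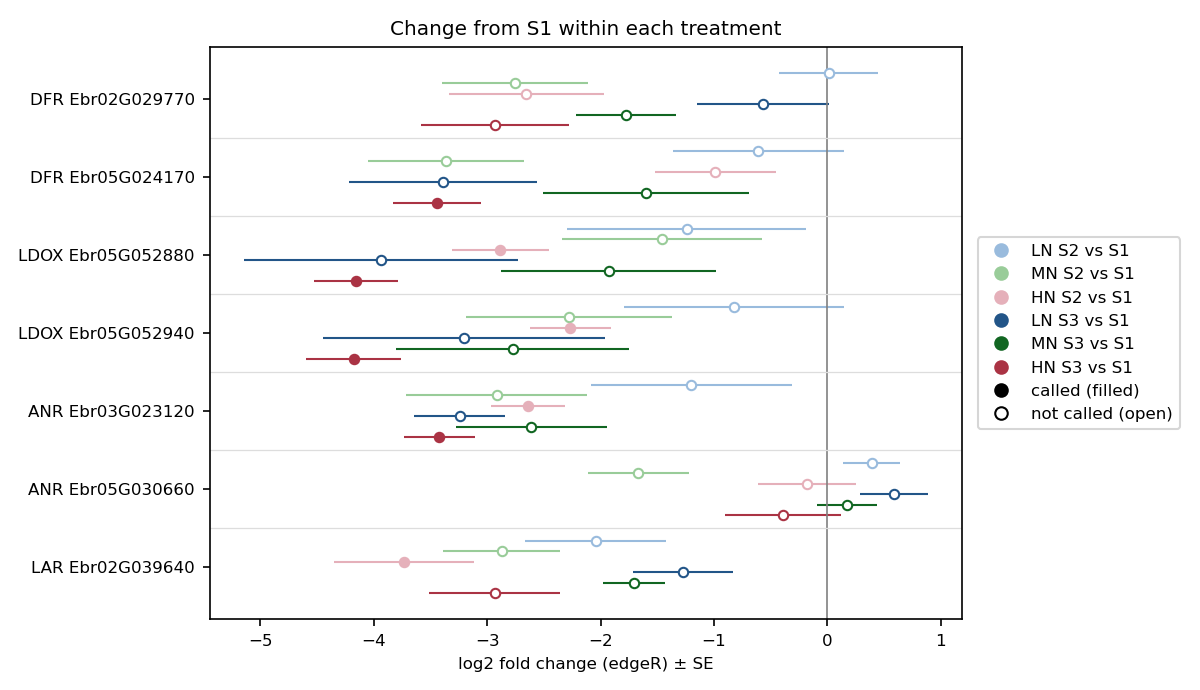
Log2 fold change (edgeR, points) with its SE (bars) of each gene for S2 vs S1 (light) and S3 vs S1 (dark) within LN, MN and HN, 3 libraries against 3. Filled points are called, which only HN comparisons reached, and the 6 genes other than Ebr05G030660 lie left of 0 in each MN and HN comparison.

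Between nitrate levels at the same stage, edgeR called 0 of the 7 genes in each of the 9 comparisons. At an unadjusted p below 0.05 there were 1, 2 and 1 for LN vs MN at S1, S2 and S3 (background 0.00918%, 0% and 0% called), 1, 2 and 2 for HN vs MN (0.111%, 0.018% and 0%) and 1, 1 and 1 for HN vs LN (0.0138%, 0.00885% and 0.00446%). Over all genes the unadjusted p was below 0.05 for 8.64%, 13.3% and 4.69% in LN vs MN, 9.31%, 18.4% and 20.3% in HN vs MN and 8.14%, 17.6% and 12.6% in HN vs LN. DESeq2 called DFR Ebr05G024170 in HN vs MN at S2 (background 4.57%) and none of the 7 elsewhere, and limma on log2(FPKM + 1) called none. Over all genes DESeq2 called 2.05%, 2.88% and 0.56% in LN vs MN and 1.89%, 4.11% and 2.46% in HN vs LN. In HN vs MN it called 2.71% at S1 and 5.79% at S3. A count of 0 of 7 is near such shares, and no share is given for limma.

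For DFR, the 3 HN S2 libraries of Ebr05G024170 (60.7 to 246 FPKM) lay above the 3 of MN S2 (6.07 to 30.3), which edgeR put at 2.90 ± 0.76 (SE, adjusted p = 0.14) on the log2 scale. LN S2 (25.9 to 146) overlapped MN S2, at 2.16 ± 0.82 (SE, adjusted p = 0.347). Ebr02G029770 was lower in LN than in MN at S1 without overlap (-1.15 ± 0.34 SE, adjusted p = 0.381) and higher in LN than in MN at S2 without overlap (1.61 ± 0.70 SE, adjusted p = 0.4). Such separation of LN from MN was found for 7.42% of genes in the lower direction at S1 and 11.2% in the higher direction at S2, and of HN from MN for 13.3% in the higher direction at S2.

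For LDOX and for ANR Ebr03G023120, the replicates of LN and HN overlapped those of MN at each stage. LDOX Ebr05G052880 in HN vs MN at S1 was 1.21 ± 0.51 (SE, adjusted p = 0.526), and ANR Ebr03G023120 in LN vs MN at S3 was -1.64 ± 0.60 (SE, adjusted p = 0.968). ANR Ebr05G030660 was lowest in MN at S2, below LN (1.47 ± 0.44 SE, adjusted p = 0.27) and HN (1.09 ± 0.45 SE, adjusted p = 0.271) without overlap. It was lower in LN than in MN at S1 (-0.58 ± 0.28 SE, adjusted p = 0.636) and lower in HN than in MN at S3 (-0.97 ± 0.37 SE, adjusted p = 0.222), again without overlap. Between HN and LN at S3, Ebr03G023120 was higher in HN (0.83 ± 0.21 SE, adjusted p = 0.282) and Ebr05G030660 lower (-0.80 ± 0.40 SE, adjusted p = 0.446), both without overlap, against 11.7% and 10% of all genes. For LAR, the HN S3 libraries (9.55 to 36.4 FPKM) lay below those of MN S3 (39.9 to 55.6; background 14% apart in that direction), at -1.30 ± 0.51 (SE, adjusted p = 0.229), a value that was called without HN S3 C and under no other alternative (-2.11, adjusted p = 0.0481).

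At S3, where the study described damage in LN and HN plants, the fold changes of HN vs MN were negative for 7 of 7 genes (-1.59 to -0.81, background 51.4% below 0) and those of LN vs MN for 6 of 7 (-2.36 to 0.06, background 48.1%), and these comparisons share the MN libraries. The medians were -1.10 and -1.41, beside -0.03 and 0.03 over all genes. Near-uniform signs were also found before S3. At S1, LN vs MN was negative for 7 of 7 genes (background 49.5% below 0). HN vs LN at S1 was positive for 7 of 7 (background 51.7% below 0). At S2, LN vs MN was positive for 6 of 7 and HN vs LN negative for 6 of 7. HN vs MN was mixed at S1 and at S2, with 3 negative and 4 positive each time. The signs are not independent, since 6 of the 7 genes correlated within groups (0.28 to 0.91). MN S3 B held the highest MN S3 level for 6 of the 7 genes, with 169 FPKM of DFR Ebr05G024170 against 31.3 and 13.1 in A and C. Without MN S3 B the HN vs MN values of Ebr05G024170 and LDOX Ebr05G052880 at S3 were above 0, at 0.37 and 0.07. The change of the HN effect (the HN vs MN log2 fold change) from S2 to S3 was negative for 7 of 7 genes (-4.21 for DFR Ebr05G024170 to -0.38 for LAR), where 52% of all genes were below 0. That of the LN effect ran from -4.53 to -0.39, where 49.6% of all genes were below 0, and both changes share the MN S2 and MN S3 libraries. The sign was not stable, since the HN value of LDOX Ebr05G052880 was 0.34 without MN S3 B and the values of LAR were above 0 in 3 fits for HN and in 1 for LN that left out 1 library. EdgeR called 0 of 7 in either (2 and 2 at an unadjusted p below 0.05, background 0.0987% and 0.00798% called). DESeq2 called 2 for the HN effect, DFR Ebr05G024170 and ANR Ebr05G030660 (background 2.44%), and 0 for the LN effect.

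**Figure D4:**
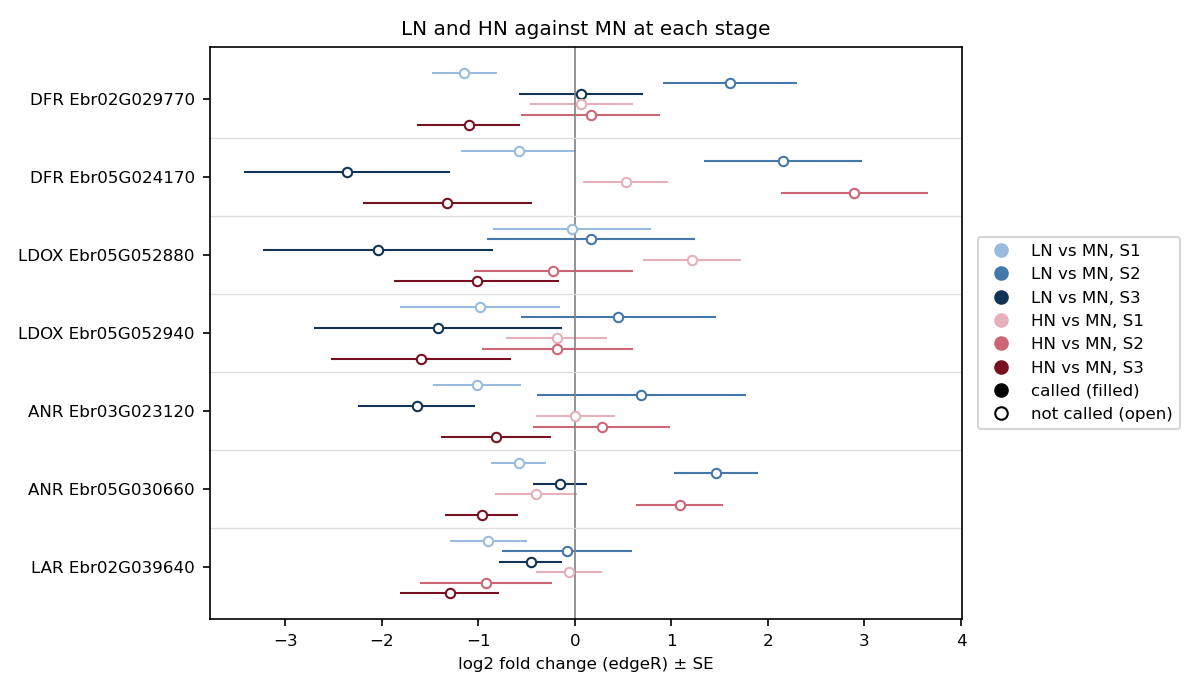
Log2 fold change (edgeR, points) with its SE (bars) of each gene for LN vs MN (blue) and HN vs MN (red) at S1, S2 and S3, from light to dark, 3 libraries against 3. All points are open, since none was called. The HN vs MN points at S3 and the LN vs MN points at S1 all lie left of 0.

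Across the 27 libraries, Pearson correlations of log2(FPKM + 1) among the 6 genes other than ANR Ebr05G030660 ran from 0.47 (DFR Ebr05G024170 with LAR) to 0.94 (the 2 LDOX genes), and those of Ebr05G030660 with the others from -0.02 to 0.40. With the group means removed, so that only differences between replicates remained, the 6 genes still correlated at 0.28 to 0.91. Among these, DFR Ebr05G024170 correlated with both LDOX genes and ANR Ebr03G023120 at 0.81 to 0.87 within groups, and DFR Ebr02G029770 with LAR at 0.74. All points share libraries and their depth, close pairs are among them, and no test was made.

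The genes most like each class leader were sought among 20894 other genes with a mean of at least 1 FPKM, again by Pearson correlation of log2(FPKM + 1) over 27 libraries. For DFR Ebr02G029770 they were Ebr03G047030 (0.88), described as flavonoid 3'-monooxygenase, which adds a hydroxyl to the B ring, Ebr04G046820 (0.86), a monosaccharide-sensing protein, and Ebr01G026640 (0.86), a chalcone synthase, the first committed enzyme of flavonoid synthesis. LAR shared Ebr03G047030 as its nearest gene (0.92), followed by Ebr06G058770 (0.91), a cyclase-like protein, and Ebr02G058930 (0.85), a tetraspanin. For LDOX Ebr05G052880 they were Ebr05G040150 (0.95), a WAT1-related membrane protein, Ebr04G070630 (0.94), a cytochrome b5, and its partner Ebr05G052940 (0.94). For ANR Ebr03G023120 they were Ebr03G032420 (0.95), a match to DETOXIFICATION 41, which in Arabidopsis loads flavan-3-ol glucosides into the seed coat vacuole, Ebr01G061940 (0.94), a flavonoid 3',5'-hydroxylase, and LDOX Ebr05G052880 (0.91). The places of the other members among all these genes ranged widely. For DFR Ebr02G029770, LAR was in place 4, ANR Ebr03G023120 in 14, LDOX Ebr05G052940 in 36, LDOX Ebr05G052880 in 145 and the other DFR gene in 169. For LDOX Ebr05G052880, ANR Ebr03G023120 was in place 5 and DFR Ebr05G024170 in 7, but DFR Ebr02G029770 in 102 and LAR in 396. For ANR Ebr03G023120, the DFR, LDOX and LAR genes were in places 3 to 60. For LAR, DFR Ebr02G029770 was in place 8 and ANR Ebr03G023120 in 72, while both LDOX genes and DFR Ebr05G024170 were in places 700 to 1616. ANR Ebr05G030660 was in places 1956 to 10828 for the 4 leaders.

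Enzymes upstream of the branch were counted from a list of enzyme names, under which 66 genes were found and 46 tested with treatments averaged. Of these, 12 were called for S2 vs S1 and 8 for S3 vs S1, all of them lower, against the 3.99% and 0.832% lower among all genes, with median log2 fold changes of -0.37 and -1.10. The first enzymes of phenylpropanoid synthesis were not called in their most abundant genes. Phenylalanine ammonia-lyase Ebr01G053210 had medians of 136, 161 and 117 FPKM at S1, S2 and S3, and trans-cinnamate 4-monooxygenase Ebr01G074580 217, 290.4 and 231, with no call for either. 4-Coumarate--CoA ligase Ebr04G003020, which activates coumaric acid, was called lower at S3 only (-1.42 ± 0.37, SE, adjusted p = 0.0443).

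Nearer to DFR, some enzymes were lower after S1 as well. Chalcone synthase Ebr01G026640 went from a median of 5112 FPKM at S1 to 849.9 at S2 and 837 at S3 (-2.25 ± 0.33 and -2.16 ± 0.33 against S1, SE, adjusted p = 0.00042 and 0.00214). Ebr04G062950, the naringenin dioxygenase that makes dihydroflavonols, the substrate of DFR, gave -1.35 ± 0.39 and -2.38 ± 0.41 (adjusted p = 0.0227 and 0.00518). Ebr04G011220, the most abundant gene under the name flavanone 3-dioxygenase, which also makes dihydroflavonols, was not called (-0.45 ± 0.18 and 0.18 ± 0.18, adjusted p = 0.0822 and 0.649), with medians of 39.0, 30.7 and 41.6 FPKM at S1, S2 and S3. The B-ring hydroxylase Ebr03G047030 gave -3.74 ± 0.70 and -3.29 ± 0.68 (adjusted p = 0.00203 and 0.0158), while Ebr01G061940, described as flavonoid 3',5'-hydroxylase, was called at S3 only (-4.62 ± 0.90, adjusted p = 0.0111). Flavonol synthase Ebr04G051790, the most abundant gene on the competing side, rose from S1 to S2 (1.12 ± 0.37, adjusted p = 0.0398), with medians of 110.3, 221 and 92.0 FPKM over the stages, and was not called for S3 vs S1 (0.11 ± 0.36). Of the 3 flavonol synthase genes tested, 1 was called higher and 1 lower for S2 vs S1, and 1 lower for S3 vs S1, and their medians were -1.96 and -2.55.

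**Figure D5:**
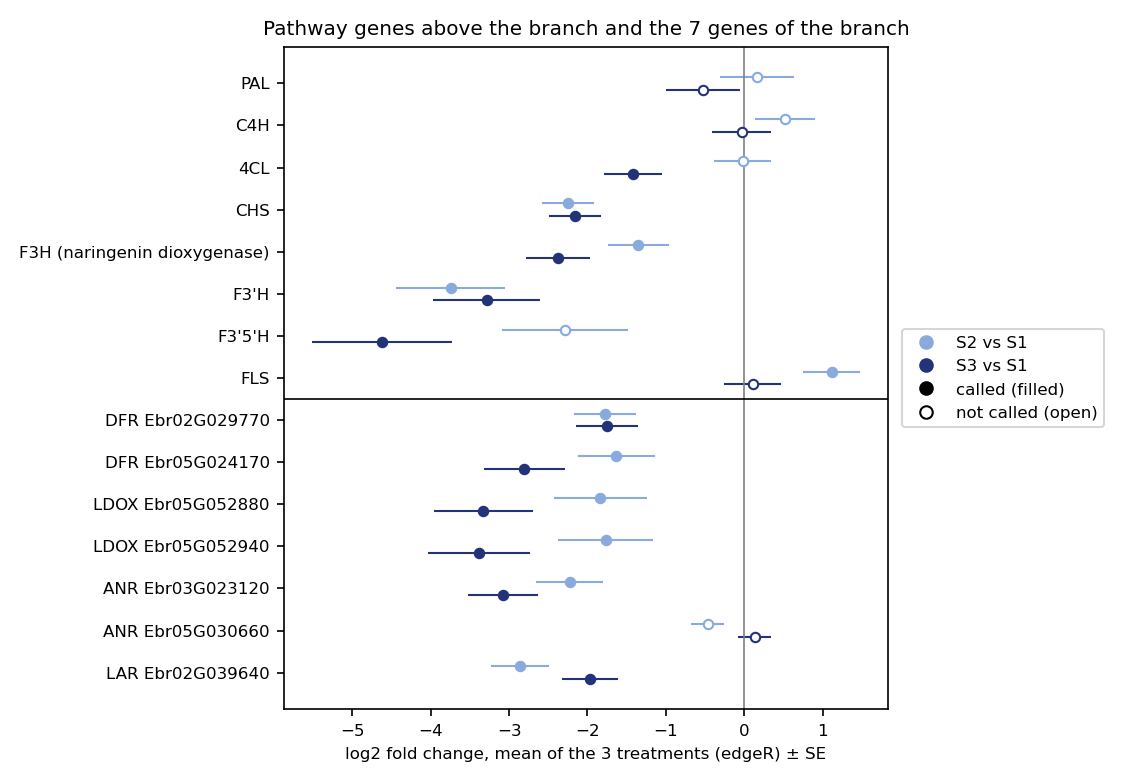
Log2 fold change with treatments averaged (edgeR, points) and its SE (bars) for S2 vs S1 (light) and S3 vs S1 (dark), for the most abundant gene of each enzyme above the branch (PAL, phenylalanine ammonia-lyase, C4H, trans-cinnamate 4-monooxygenase, 4CL, 4-coumarate--CoA ligase, CHS, chalcone synthase, F3H, F3'H and F3'5'H, hydroxylases, FLS, flavonol synthase) and for the 7 genes. Filled points are called: CHS, F3H, F3'H and 6 of the 7 genes are called lower at both stages, and FLS at S2 is the only one called higher.

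Downstream names (anthocyanidin glycosyltransferases and descriptions holding the word anthocyanin, which also takes in the homeobox factor ANTHOCYANINLESS 2) took in 78 genes, of which 28 were tested. For S2 vs S1, 6 were called lower and 1 higher, and for S3 vs S1 1 lower and 0 higher, with medians of -0.48 and 0.01. The most abundant genes under the 4 downstream names that were found, Ebr01G044950, Ebr05G055150, Ebr03G032820 and a gene model outside the Ebr numbering, were not called, at -1.11 to 0.30 for S2 vs S1 and -0.93 to 0.73 for S3 vs S1. Regulators (MYB, bHLH and WD40 names tied to anthocyanin or flavonol control in other plants) took in 58 genes, 22 of them tested, with 5 lower and 3 higher for S2 vs S1 and 7 lower and 0 higher for S3 vs S1. Beside these counts of both lists, 3.99% of all genes tested were called lower and 6.26% higher for S2 vs S1, and 0.832% and 1.35% for S3 vs S1. The most abundant gene under each regulator name was looked at singly. Ebr05G065900, a match to kiwifruit MYB123, had medians of 33.8, 4.02 and 0.641 FPKM at S1, S2 and S3 (-2.62 ± 0.61 and -4.88 ± 0.69 against S1, SE, adjusted p = 0.00684 and 0.00161 by edgeR). Ebr05G063290, a match to GLABRA 3, a bHLH partner of such MYB factors in Arabidopsis, rose from S1 to S2 (1.504 ± 0.25, adjusted p = 0.000971), and Ebr05G066860, a match to the WD40 protein TRANSPARENT TESTA GLABRA 1, was not called (-0.0025 ± 0.23 and -0.17 ± 0.23). Ebr01G023820, the most abundant of 30 genes matching the name MYB1, is not the gene that the paper calls MYB1. It had medians of 117, 52.9 and 30.3 FPKM and was called lower at S3 (-2.16 ± 0.55, adjusted p = 0.0372) but not at S2 (-0.86 ± 0.53, adjusted p = 0.277). Ebr03G023790, a match to MYB113, had stage medians of 0, 0.558 and 0 FPKM and was called higher for S2 vs S1 (adjusted p = 0.019), with no fold given against an S1 median of 0. Ebr01G065030 (MYB12) and Ebr03G023880 (MYB90) were not called, and Ebr01G036600 (MYB75) and Ebr03G005390 (EGL1) were too low to be tested. These lists rest on words in the descriptions. With close pairs summed, 1, 0, 1 and 2 genes of the upstream, flavonol synthase, downstream and regulator lists were still called for S2 vs S1, and 0, 0, 0 and 1 for S3 vs S1. In that setting 0.321% of 29611 genes were called for S2 vs S1 in both directions, and the share for S3 vs S1 is not given here.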

How the data were processed

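Read counts per gene and FPKM were deposited by the authors in 2 tables of 27 libraries; the submitters' processing notes name HISAT2 2.0.5, StringTie 1.3.3b and featureCounts 1.5.0-p3. The deposited FPKM values of a library were proportional to count over gene length. The paper cites a published genome of Epimedium pubescens for alignment. Not given in the sources used here were the version of that assembly, the use of strand and the handling of reads shared by similar genes. The members and lists were chosen with earlier results of these data known.

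Counts were fitted in edgeR 4.0.16 (R 4.3.3) by the quasi-likelihood test with TMM factors and filterByExpr, on all genes, with Benjamini-Hochberg adjustment, and a call took an adjusted p below 0.05 and, for comparisons of groups or stages, a change of 1 or more on the log2 scale. Treatments and stages were compared in 2-group fits of 6 libraries, joint effects in a fit of 27. The SE was taken as the size of the log2 change divided by √F. Alternatives were DESeq2 1.42.0, limma 3.58.1 on log2(FPKM + 1) and log2(FPKM + 0.1), RLE factors, no filter, no fold threshold, all 27 libraries in 1 fit, the replicate letter as a block, close pairs summed and each library left out. The paper speaks of biological replicates without saying which plants made up a library, so p-values measure the spread between these libraries, and intervals between 3 and 3 libraries are wide. An exact permutation test of 3 libraries against 3 cannot go below p = 0.1 and was not used. All 7 genes of the rule are named, with the 3 genes most correlated with the most abundant gene of each enzyme and the most abundant gene of each list word, except 1 gene model outside the Ebr numbering. Scripts were tested on simulated counts with a smaller spread between libraries than the deposited ones. That check does not show what fits of 3 libraries against 3 could detect here.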

Additional observations from a re-analysis of the deposited data

Results flagged for a closer look

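For DFR Ebr02G029770, all 3 LN libraries lay below all 3 MN libraries at S1 (log2 fold change -1.15) and above them at S2 (1.61), a difference of 2.75 between the stages. For ANR Ebr05G030660 the same comparison was -0.58 at S1 and 1.47 at S2, a difference of 2.05, and HN vs MN was 1.09 at S2 and -0.97 at S3, a difference of -2.05, each time without overlap. Both LN vs MN differences and the HN vs MN difference share the MN S2 libraries, of which B and C are a close pair. The difference between S1 and S2 was not itself tested. The joint treatment by stage test of edgeR gave an adjusted p of 0.287 for Ebr02G029770 and 0.151 for Ebr05G030660, and the S2 to S3 change of the HN effect for Ebr05G030660 gave 0.207, none of them called. DESeq2 called Ebr05G030660 for both the joint test and the S2 to S3 change of the HN effect, and did not call Ebr02G029770 for the joint test.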

How the results depend on the processing

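Counts below are of the 7 genes called. For limma, no filter, the replicate block, 1 fit of all 27 libraries and fits leaving out 1 library, no share over all genes is given. DESeq2 moved 11 counts from 0: to 1 for HN vs MN S2, LN S2 vs S1, LN S3 vs S2 and MN S3 vs S2, to 2 for treatment at any stage, treatment by stage, S3 vs S2 with treatments averaged and the S2 to S3 change of the HN effect, to 3 for LN S3 vs S1, to 4 for MN S3 vs S1 and to 5 for MN S2 vs S1. Limma with either pseudocount gave 1 for LN S3 vs S1, HN S3 vs S2 and treatment at any stage and 2 for MN S2 vs S1. With no filter MN S2 vs S1 gave 1. In 1 fit of all 27 libraries MN S2 vs S1 gave 5, MN S3 vs S2 gave 1 and HN S3 vs S2 gave 0. RLE factors and no fold threshold moved no count by over 1.5 times.

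With the replicate block the counts were 1 for HN S2 vs S1, 0 for HN S3 vs S2 and 1 for HN S3 vs S1, and the block moved no other count by over 1.5 times. Deviations from group means correlated at a mean of 0.038 for same-letter libraries (-0.22 to 0.387) and -0.019 for different letters. Deviations within a group sum to 0, so these 2 means depend on each other. Whether letters pair the libraries was not tested. With close pairs summed, the counts were 0 for HN S2 vs S1, HN S3 vs S2, HN S3 vs S1, any difference among 9 groups, stage in any treatment and S3 vs S1 averaged, and 1 for S2 vs S1 averaged. That setting leaves 20 libraries.

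Leaving out 1 library gave 0 to 1 for HN vs MN S3 and treatment at any stage, 0 to 2 for MN S2 vs S1 and S3 vs S2 averaged, 0 to 4 for HN S2 vs S1, 0 to 3 for HN S3 vs S2, 0 to 5 for HN S3 vs S1, 4 to 7 for any difference and for stage, 3 to 6 for S2 vs S1 averaged, 5 to 6 for S3 vs S1 averaged, and 0 for the other counts. Of the 161 fold changes of the 7 genes, 35 changed sign under 1 or more of these settings, with edgeR values of -1.32 to 0.79, and none of these 35 was called. Those named above were 0.01 for LN S2 vs S1 of DFR Ebr02G029770 (-0.31 to -0.05 in 8 settings), 0.06 for LN vs MN S3 of the same gene (-0.84 to -0.07 in 5), 0.13 for S3 vs S1 averaged of ANR Ebr05G030660 (-0.0081 in 1), and the values at S3 given above without MN S3 B and for LAR. Of the genes of other lists, flavonol synthase Ebr04G051790 (0.11 for S3 vs S1 averaged) and Ebr05G066860 (-0.0025 for S2 vs S1 averaged) also changed sign. The cause of these changes was not tested. Fits with close pairs summed or with 1 library left out also held fewer libraries.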
